A study of Homo sapiens with 32 samples.

Results

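Proteoglycans are proteins that carry long sulfated glycosaminoglycan chains, and hyaluronan is a free glycosaminoglycan that cells bind through the receptor CD44. 10 genes of this system were followed in MCF10A, an immortalized epithelial line from human breast that forms no tumours, and were chosen by symbol among the 17788 genes of the count table. They code for the secreted core proteins versican (VCAN), biglycan (BGN) and perlecan (HSPG2), the cell surface heparan sulfate proteoglycans syndecan-1, syndecan-2 and syndecan-4 (SDC1, SDC2, SDC4) and glypican-1 (GPC1), the hyaluronan synthases HAS2 and HAS3, and CD44. All 10 symbols had a row, and all 10 passed the low-count filter, HAS2 only through the libraries in which it is high.

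RNA-seq read counts of 32 libraries were used, in 8 groups of 4. JUNB WT clones 27 and 2 are wild type by their labels. For its SNAI1, SNAI2 and ZEB1 clones, the paper took as WT controls clones put through CRISPR/Cas9 and the same cloning without change at those genes. It does not state this for the JUNB controls. JUNB mut clones 1 and 65, labelled as knock-out, carried an extended CRISPR/Cas9 deletion in JUNB, and a smaller JUNB polypeptide remained in them at low level, so that they are no clean null. The mut clones were each derived from a single cell. Each clone was sampled in 2 replications and received solvent, or 5 ng/ml of TGFβ1 for 6, 24 or 72 h, and all plates were harvested at the same time after seeding. A library is written here as clone and replication, for example 27-1, and the 4 libraries of a clone and replication are called a series. With 2 clones per genotype, an effect of JUNB and a difference between clones cannot be told apart. Where p-values are given they measure the spread between these libraries.

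Library totals were 39702412 to 54651906 counts, so that 3 counts, the floor used here for a count of 0, corresponded to 0.0549 to 0.0756 CPM (counts scaled to a library total of 1000000). JUNB RNA was 89.7 to 297 CPM in the WT libraries and 69.2 to 518 CPM in the mut libraries, so the gene count did not separate the labelled genotypes. The cells carried the basal epithelial keratin KRT5 at 3262 to 8158 CPM. Marker lists of other cell types were mixed. Of 8 luminal mammary markers in the table, KRT8 was at 85.9 to 237 CPM and KRT18 at 97.5 to 229 CPM. FOXA1 and ERBB3 reached 14.7 and 20.6 CPM, while KRT19 was at or below 0.314 CPM and ESR1 at or below 1.22 CPM. The summed luminal level in solvent was 287 to 347 CPM in WT and 370 to 503 CPM in mut. At 6 h it was 230 to 344 against 414 to 499 CPM, and at 24 h and 72 h the genotypes overlapped. Of 8 fibroblast markers, THY1, DPT and TCF21 were at or below 0.202 CPM in every library, COL1A2, PDGFRA and PDGFRB at or below 1.51 CPM, and COL1A1 and PDPN reached 73.4 and 233 CPM. Their summed level moved with the treatment, from 45.1 to 56.0 CPM in WT solvent libraries to 240 to 278 CPM at 72 h, and in mut from 41.9 to 65.0 CPM to 95.4 to 125 CPM. Of 4 endothelial markers in the table, VWF and CLDN5 were at or below 0.140 CPM, TEK reached 4.85 CPM and KDR 27.0 CPM, and their sum was higher in mut than in WT at each treatment (23.2 to 28.6 against 6.77 to 17.0 CPM in solvent). Of 7 leukocyte markers in the table, PTPRC and CD3E were at or below 0.0498 CPM and ITGAM at or below 0.719 CPM, while CD14, CD68 and CSF1R reached 28.1, 24.4 and 27.9 CPM and LCP1 89.8 CPM. The part of these markers in the results was not tested. In bulk RNA, fewer expressing cells and less RNA per cell cannot be told apart.

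Versican and biglycan bear chondroitin or dermatan sulfate. Versican holds water and binds hyaluronan in provisional matrix, and biglycan is a small leucine-rich proteoglycan that binds collagen and TGFβ. Syndecans span the membrane and glypican-1 is held by a lipid anchor, and their heparan sulfate chains bind growth factors. Perlecan is the heparan sulfate proteoglycan of basement membranes. HAS2 and HAS3 extrude hyaluronan through the plasma membrane. TGFβ1 drives epithelial-mesenchymal transition (EMT) in these cells, and matrix remodelling is part of it. AP-1 transcription factors are dimers that can contain JUNB, and the comparison of the genotypes asks how far the response to TGFβ1 needs it.

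Promoter windows of 300 bases, 250 before and 50 after the annotated start, were matched for 8 of the 10 genes in RefSeq (GRCh38.p14), SDC1 with an entry for each of its starts. On GRCh38 the genes with a matched window lie at chr5:83471618-83582303 (VCAN), chrX:153494980-153509546 (BGN), chr1:21822244-21937310 (HSPG2), chr2:20200797-20225433 (SDC1), chr20:45325288-45348424 (SDC4), chr2:240435663-240468076 (GPC1), chr16:69105653-69118719 (HAS3) and chr11:35138882-35232402 (CD44). The starts used for the windows need not be the outer ends of these spans. The stretch before the start ends inside the span for HAS3 (chr16:69107539), CD44 (chr11:35139170) and VCAN (chr5:83471743). 1 SDC1 stretch lies inside as well (chr2:20225131-20225380). None of the 9 windows held the AP-1 motif TGANTCA, read on both strands since it is its own reverse complement, against 7.71% of all 35116 promoter windows. The letters are a description only, and their absence from these windows tells nothing of AP-1 at other sites. The motif GGGCGG or its complement CCGCCC, called a GC box, was in all 9 windows, against 45.0% of all windows. TATAAA, read on the coding strand only, was in none, against 7.33%, and the SMAD palindrome GTCTAGAC was in none, against 0.202%. CAGGTG or CACCTG, the E-box bound by SNAIL and ZEB factors, was in 1 window, that of SDC1, against 20.6%. The 250 bases before the start are shown for BGN (chrX:153494730-153494979, plus strand), which was a DEG between the genotypes at every treatment, and for GPC1 (chr2:240435413-240435662, plus strand), whose response to TGFβ1 differed between them. Capitals mark GC boxes, of which BGN has 5 and GPC1 has 4 in this stretch.
BGN: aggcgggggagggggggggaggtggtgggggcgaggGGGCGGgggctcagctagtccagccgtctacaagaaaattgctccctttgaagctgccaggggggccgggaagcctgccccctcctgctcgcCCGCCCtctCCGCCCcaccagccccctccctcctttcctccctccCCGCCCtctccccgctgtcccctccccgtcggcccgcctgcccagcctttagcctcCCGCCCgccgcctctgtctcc
GPC1: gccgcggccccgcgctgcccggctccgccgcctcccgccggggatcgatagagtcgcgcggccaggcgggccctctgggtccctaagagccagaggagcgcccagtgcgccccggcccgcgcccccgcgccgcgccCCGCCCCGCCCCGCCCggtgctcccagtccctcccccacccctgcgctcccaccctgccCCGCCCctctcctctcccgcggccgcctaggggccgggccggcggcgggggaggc

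Levels per kilobase of merged exons (CPM per kb) put syndecan-1, syndecan-4 and CD44 far above the rest. Merged exons join those of all annotated transcript forms, which gene counts do not separate, so the order depends on this length. In CPM, CD44 at 860 stood above SDC1 at 692 and SDC4 at 296 in WT solvent libraries (group means). In WT solvent libraries SDC1 stood at 191 ± 28.2 CPM per kb (SD, n = 4), SDC4 at 113 ± 8.66 and CD44 at 86.1 ± 4.06. GPC1 followed at 21.6 ± 1.39, HSPG2 at 8.36 ± 1.70, VCAN at 6.32 ± 0.670, HAS3 at 3.02 ± 0.630 and BGN at 1.39 ± 0.717. SDC2 at 0.326 ± 0.219 and HAS2 at 0.0652 ± 0.0356 were lowest. Of these neighbours in the order, HSPG2 and VCAN overlapped between libraries and the others did not. After 72 h of TGFβ1 the WT order had VCAN at 15.4 ± 1.77 CPM per kb above GPC1 at 13.6 ± 0.794, with overlapping libraries. In mut solvent libraries BGN stood at 7.24 ± 1.03 CPM per kb, between HSPG2 and VCAN, and its libraries overlapped those of both.

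TGFβ1 against solvent in JUNB WT clones changed most of the 10 genes, in both directions. Genes with an adjusted p below 0.05 in limma-voom over all 14865 genes tested are called differentially expressed genes (DEGs). At 6 h 3 of the 10 were DEGs, 1 higher and 2 lower, where 17% of all genes were DEGs, 5.13% higher and 11.9% lower. At 24 h 8 of 10 were DEGs, 4 higher and 4 lower, against 52.1% of all genes, 14.1% higher and 38% lower. At 72 h it was again 8 of 10, 4 in each direction, against 52.2% of all genes, 13.9% higher and 38.4% lower. The median log2 change (log2FC) of the 10 genes was 0.34 at 24 h and -0.18 at 72 h, and that of all genes -0.18 and -0.19. HAS2 was a DEG at 24 h and 72 h, and without it the counts were 7 of 9 at both times.

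In JUNB mut clones fewer genes passed the test at each time. At 6 h 2 of the 10 were DEGs, both higher, where 7% of all genes were DEGs, 2.06% higher and 4.94% lower. At 24 h 5 of 10 were DEGs, 3 higher and 2 lower, against 23.8% of all genes, 6.75% higher and 17.1% lower. At 72 h 5 of 10 were DEGs, 2 higher and 3 lower, against 24.1%, 7.81% higher and 16.3% lower. These counts rest on a common library-size scaling, which left most DEGs of the whole table lower. With composition scaling (TMM factors), 48.0% instead of 26.5% of all WT DEGs at 72 h were higher, and 52.0% instead of 32.4% in mut. The same share went from 27.1% to 50.4% in WT at 24 h and from 30.2% to 53.1% at 6 h, and in mut from 28.4% to 53.5% at 24 h and from 29.4% to 57.6% at 6 h. TMM factors moved the median log2FC of all genes from -0.18 to 0.00 in WT at 24 h and from -0.19 to -0.03 at 72 h, and small falls there are read against it. Comparing the treated libraries with the solvent libraries of their own series, by a fit with series as a block, gave 5, 10 and 9 of 10 in WT at 6, 24 and 72 h, against 25.9%, 59.6% and 60% of all genes. In mut it gave 4, 5 and 9 of 10, against 16.5%, 35% and 33.9% of all genes, so that the shares of all genes were also higher in that fit.

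**Figure D1:**
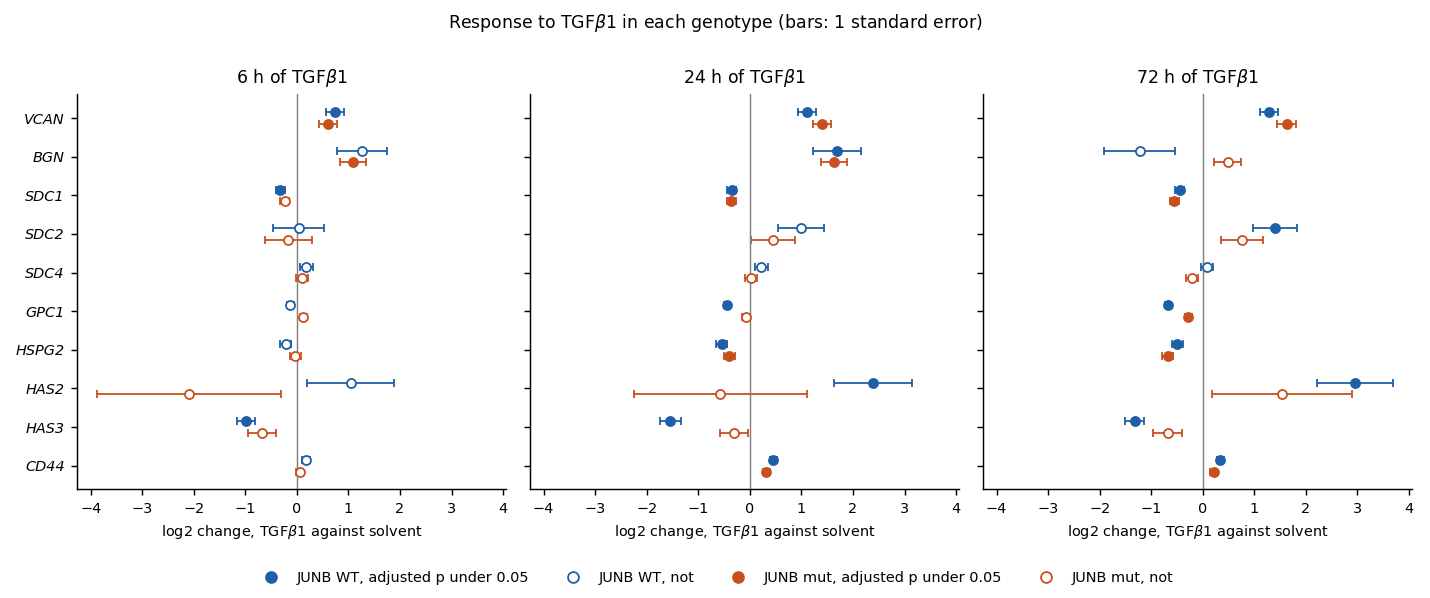
The horizontal axis is the log2 change between TGFβ1 and solvent, 1 panel per treatment time and 1 row per gene, with blue for JUNB WT and orange for JUNB mut; bars are 1 standard error and filled points passed an adjusted p of 0.05. VCAN lies to the right and SDC1 to the left in both genotypes at each time, and HAS3 is filled in WT alone. Points are from the fit with the low-count filter, which HAS2 passed only through the libraries in which it is high.

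Versican RNA rose in both genotypes at each time. In WT solvent libraries VCAN was at 102, 88.5, 80.9 and 100.1 CPM in 27-1, 2-1, 27-2 and 2-2, and after 72 h of TGFβ1 at 227, 249, 189 and 239 CPM. In mut solvent libraries it was at 88.8, 69.7, 93.9 and 67.5 CPM in 1-1, 65-1, 1-2 and 65-2, and after 72 h at 304, 235, 308 and 159.7 CPM. Solvent and 72 h libraries did not overlap in either genotype, and both libraries of mut clone 1 ended above every other library. In WT the log2FC reached 0.73 ± 0.177 (SE) by 6 h, then 1.11 ± 0.177 by 24 h and 1.28 ± 0.176 by 72 h (adjusted p = 7.71e-07 at 72 h). In mut it was 0.60 ± 0.179, 1.40 ± 0.177 and 1.62 ± 0.177 (adjusted p = 0.0375 at 6 h and 1.28e-07 at 72 h). The call in mut at 6 h was lost when any of 6 libraries was left out, all of them mut solvent or mut 6 h libraries of 1-1, 65-1 and 65-2. The difference between the genotypes in the 72 h response was 0.34 ± 0.25 (adjusted p = 0.413), with the 24 h value at 0.29 ± 0.25. Gene counts do not separate versican splice forms.

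Biglycan went up by 24 h and came down again by 72 h in both genotypes, from starting levels far apart. WT solvent libraries held BGN at 2.03, 3.72, 2.01 and 5.64 CPM, 24 h libraries at 9.09, 14.7, 4.73 and 15.1 CPM, and 72 h libraries at 0.352, 1.33, 1.56 and 3.73 CPM, in the order 27-1, 2-1, 27-2 and 2-2. Clone 2 was above clone 27 of the same replication at each time. In mut the solvent libraries were at 21.0, 16.2, 17.0 and 15.3 CPM, the 24 h libraries at 73.7, 48.9, 50.7 and 45.0 CPM, and the 72 h libraries at 26.9, 23.3, 21.6 and 24.9 CPM, in the order 1-1, 65-1, 1-2 and 65-2. The lowest mut library at any time stood above the highest WT library of that time. In WT the 24 h and solvent libraries overlapped, and in mut they did not.

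At 6 h the log2FC of BGN was 1.08 ± 0.252 in mut (adjusted p = 0.0101), a call lost without the 6 h library of 65-1 and in both other count tests (adjusted p = 0.0779 and 0.0855), and 1.26 ± 0.486 in WT (adjusted p = 0.0742), which passed with series as a block at 1.23 (adjusted p = 0.000265). The log2FC at 24 h was 1.68 ± 0.468 in WT (adjusted p = 0.00337) and 1.64 ± 0.247 in mut (adjusted p = 2.27e-05), and the difference of these responses was -0.05 ± 0.529. From 24 to 72 h BGN fell by 2.91 ± 0.617 on the log2 scale in WT (adjusted p = 0.00474) and by 1.15 ± 0.231 in mut (adjusted p = 0.012). The mut fall was lost without the 24 h library of 1-1 or without series 1-2, and it passed neither edgeR's quasi-likelihood test (adjusted p = 0.11) nor DESeq2 (adjusted p = 0.113). At 72 h against solvent the WT value was -1.23 ± 0.695 (adjusted p = 0.142) and the mut value 0.48 ± 0.263 (adjusted p = 0.193). With series as a block both passed, at -1.06 in WT (adjusted p = 0.00856) and 0.48 in mut (adjusted p = 0.00513). The difference between the 2 responses at 72 h was 1.71 ± 0.743 (adjusted p = 0.133), and 1.54 with the block (adjusted p = 0.00313).

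Syndecan-1 RNA, the highest of the 10 per length in solvent libraries, fell in both genotypes. WT libraries went from 651, 774, 566 and 776 CPM in solvent to 529.8, 487, 507 and 487 CPM at 72 h, and mut libraries from 738, 762, 664 and 694 to 437, 486, 443 and 588 CPM. Solvent and 72 h libraries did not overlap in either genotype. SDC1 fell by 0.45 ± 0.0877 on the log2 scale in WT at 72 h (adjusted p = 0.000101) and by 0.56 ± 0.088 in mut (adjusted p = 2.56e-05), with a difference of -0.11 ± 0.124 between them. With TMM factors the 72 h values were -0.29 in WT (adjusted p = 0.0061) and -0.48 in mut (adjusted p = 9.45e-05). The WT fall at 24 h of 0.36 ± 0.0878 (adjusted p = 0.00118) was -0.18 with TMM factors (adjusted p = 0.0829), so that there the call depends on the scaling. The WT call at 6 h, -0.32 ± 0.0878 (adjusted p = 0.0109), was lost without the solvent library of 2-1 or that of 2-2. In mut at 6 h the value was -0.23 ± 0.0882 (adjusted p = 0.101), and it passed with the block (adjusted p = 0.0472).

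Syndecan-2, a syndecan of mesenchymal cells, was low throughout. WT solvent libraries held 1.30, 0.766, 2.61 and 0.655 CPM and 72 h libraries 2.70, 1.86, 5.60 and 2.83 CPM, in the order 27-1, 2-1, 27-2 and 2-2, so that every series was higher at 72 h although the groups overlapped. Series 27-2 was the highest WT library at each time. The log2FC in WT at 72 h was 1.41 ± 0.426 (adjusted p = 0.00681). Mut solvent libraries held 1.46, 1.01, 1.53 and 1.57 CPM and 72 h libraries 2.44, 1.59, 2.79 and 2.57 CPM, without overlap, and the log2FC of 0.76 ± 0.403 did not pass (adjusted p = 0.176), but did with the series block (adjusted p = 0.023). At 24 h in WT the value was 0.99 ± 0.443 (adjusted p = 0.063), and 0.84 with the block (adjusted p = 0.00962).

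Syndecan-4, the syndecan of focal adhesions, kept a range of 254 to 477 CPM over all libraries. Its log2FC was between -0.21 and 0.22 over the 6 comparisons with solvent, and none passed. In WT at 24 h, 0.22 ± 0.118, it passed with TMM factors at 0.40 (adjusted p = 0.00546) and with the series block (adjusted p = 0.0224). In mut at 72 h it was -0.21, which passed with the block (adjusted p = 0.0481).

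Glypican-1 RNA fell in WT at 24 h and 72 h, and in mut a smaller fall passed at 72 h alone. WT libraries went from 146, 143, 128 and 147 CPM in solvent to 104, 97.0, 106 and 107 CPM at 24 h and 94.7, 83.7, 90.5 and 84.7 CPM at 72 h. Mut libraries went from 150.2, 168, 143 and 157 CPM to 144, 133, 161 and 146 CPM at 24 h and 126, 126, 123 and 134 CPM at 72 h. In WT the solvent, 24 h and 72 h libraries did not overlap each other, and in mut the 24 h libraries overlapped those in solvent. GPC1 fell by 0.67 ± 0.0642 on the log2 scale in WT at 72 h (adjusted p = 2.01e-09) and by 0.28 ± 0.063 in mut (adjusted p = 0.0016). With TMM factors these were -0.51 in WT (adjusted p = 6.57e-07) and -0.20 in mut (adjusted p = 0.0312). At 24 h the log2FC was -0.45 ± 0.0638 in WT (adjusted p = 1.16e-06). In mut it was -0.09 ± 0.063 (adjusted p = 0.348), and 0.00 with TMM factors (adjusted p = 0.995).

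The difference between these GPC1 responses passed the test. It was 0.39 ± 0.09 at 72 h (adjusted p = 0.00441) and 0.36 ± 0.0896 at 24 h (adjusted p = 0.0114), with the mut response less negative. With TMM factors the 72 h difference was 0.31 (adjusted p = 0.0423) and the 24 h difference 0.27 (adjusted p = 0.0948), so the 24 h call depends on the scaling, and without series 1-2 it was 0.28 (adjusted p = 0.0796). With the replications of a clone summed, which leaves 2 values per group, neither passed (adjusted p = 0.109 at 24 h and 0.0698 at 72 h).

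Perlecan RNA fell in both genotypes by 24 h. WT solvent libraries held HSPG2 at 137, 155, 121 and 193 CPM and 72 h libraries at 114, 109.6, 103 and 96.9 CPM. Mut solvent libraries held 149, 165, 142 and 169 CPM and 72 h libraries 109, 105, 100.2 and 77.4 CPM, and solvent and 72 h libraries overlapped in neither genotype. HSPG2 fell by 0.50 ± 0.106 on the log2 scale in WT at 72 h (adjusted p = 0.000246) and by 0.68 ± 0.105 in mut (adjusted p = 1.87e-05). With TMM factors these were -0.34 in WT (adjusted p = 0.00651) and -0.61 in mut (adjusted p = 4.16e-05). The difference between the responses was -0.18 ± 0.149 (adjusted p = 0.471).

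The hyaluronan synthases moved in opposite directions in WT clones. HAS2 was nearly silent in solvent, with 20, 16, 10 and 3 counts in 27-1, 2-1, 27-2 and 2-2 (0.419, 0.360, 0.251 and 0.0756 CPM). It reached 29, 66, 83 and 105 counts at 24 h and 28, 125, 116 and 150 counts at 72 h, the latter 0.615, 2.91, 2.35 and 3.43 CPM. Series 27-1 was far below the other WT libraries at both times. Treated libraries of both times lay above every solvent library. Since HAS2 met the low-count filter only through libraries in which it is high, its tests are given from a limma-voom fit of all 17788 genes with no filter, in which the log2FC was 2.41 at 24 h (adjusted p = 0.00776) and 2.96 at 72 h (adjusted p = 0.00108).

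In mut clones HAS2 had 1, 0, 20 and 1 counts in solvent, 0 in all 4 libraries at 6 h, 3, 3, 0 and 0 at 24 h, and 3, 11, 9 and 4 at 72 h, in the order 1-1, 65-1, 1-2 and 65-2. The 20 counts were all in the solvent library of 1-2, which stood apart from the other 3. Log2FC values against solvent in mut, from -2.10 to 1.53 in the fit with no filter, did not pass and depend on the added prior count. The fitted difference between the genotypes in the response was -2.99 at 24 h (adjusted p = 0.267) and -1.43 at 72 h (adjusted p = 0.583).

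HAS3 fell in WT clones by 6 h. Libraries 27-1, 2-1, 27-2 and 2-2 went from 19.7, 16.9, 13.8 and 12.4 CPM in solvent to 8.47, 8.14, 6.09 and 8.94 CPM at 6 h, 8.49, 3.91, 4.26 and 5.32 CPM at 24 h and 8.59, 7.09, 5.64 and 4.41 CPM at 72 h. No treated library reached the lowest solvent library. HAS3 had a log2FC of -0.99 ± 0.178 at 6 h (adjusted p = 0.000258), -1.54 ± 0.198 at 24 h (adjusted p = 2.07e-07) and -1.32 ± 0.189 at 72 h.

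In mut clones solvent libraries overlapped the WT libraries treated for 24 h. Solvent libraries held HAS3 at 3.43, 5.24, 3.68 and 4.63 CPM, those treated for 24 h at 3.04, 2.84, 3.54 and 4.31 CPM, and those treated for 72 h at 3.18, 2.80, 2.31 and 2.24 CPM. The log2FC of -0.68 ± 0.278 at 72 h did not pass (adjusted p = 0.0729), but did with the series block (adjusted p = 0.0162), as did that at 6 h (-0.69, adjusted p = 0.0322). The difference of the 24 h responses was 1.23 ± 0.333 (adjusted p = 0.0184), and it missed the threshold without series 1-2 at 1.16 (adjusted p = 0.0851). Exons of HAS3 share 365 bases with CHTF8 on the other strand, whose counts were 2060% of those of HAS3, and the library kit keeps no strand, so reads of the 2 genes there cannot be told apart.

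CD44 RNA was high everywhere and rose modestly in both genotypes. WT libraries went from 816, 866, 912 and 845 CPM in solvent to 1069, 1147, 1237 and 1276 CPM at 24 h, and mut libraries from 781, 820.3, 844 and 871 CPM to 1060.0, 1058, 946 and 1066 CPM. Neither pair of groups overlapped. The log2FC at 24 h was 0.46 ± 0.0702 in WT (adjusted p = 3.33e-06) and 0.32 ± 0.07 in mut (adjusted p = 0.00169), and at 72 h 0.34 ± 0.0701 and 0.21 ± 0.07 (adjusted p = 0.027 in mut). The mut call at 72 h was lost without the solvent library of 1-1 or 65-1 or the 72 h library of 1-2 or 65-2. At 6 h in WT it was 0.18 ± 0.0699 (adjusted p = 0.0848), and it passed with the block (adjusted p = 0.0127). The difference between the responses, -0.14 ± 0.0991 at 24 h, did not pass (adjusted p = 0.423). Standard and variant forms of CD44 cannot be told apart in gene counts.

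Fewer of the 10 genes, and fewer of all genes, passed from 24 to 72 h than from 6 to 24 h. The WT count from 6 to 24 h was near the share of all genes. From 6 to 24 h 3 of the 10 genes were DEGs in WT (GPC1 and HSPG2 lower, CD44 higher), where 28.2% of all genes were DEGs, and 3 in mut (VCAN and CD44 higher, HSPG2 lower), against 3.12% of all genes. From 24 to 72 h 2 were DEGs in WT (BGN and GPC1 lower), against 7.83%, and BGN alone in mut, against 1.31%. With series as a block the counts were 8 in WT and 5 in mut from 6 to 24 h, and 2 in each genotype from 24 to 72 h. The shares of all genes in that fit were 37.7% and 11.6%, and then 17.4% in WT and 9.45% in mut. The HSPG2 call in mut stood at the threshold (adjusted p = 0.0496) and was lost when any of 25 of the 32 libraries was left out. That in WT was -0.32 ± 0.106 (adjusted p = 0.0213), and -0.22 with TMM factors (adjusted p = 0.106), and was lost without the 24 h library of 27-2 or 2-2. In mut the VCAN call, 0.80 ± 0.174, was lost without the 6 h library of 1-2 or the 24 h library of 1-1, and the CD44 call, 0.26 ± 0.07, without the 6 h library of 1-1, 65-1 or 1-2 or the 24 h library of 1-1, 65-1 or 65-2. The GPC1 call in WT from 24 to 72 h (adjusted p = 0.0272) was lost without the 24 h or the 72 h library of 27-2 or 2-2, the 24 h library of 27-1 or the 72 h library of 2-1.

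In JUNB mut against JUNB WT clones, BGN and HAS3 were DEGs at each treatment, and HAS2 and GPC1 under TGFβ1 alone. In solvent 3 of the 10 genes were DEGs, 2 higher and 1 lower in mut, where 12.7% of all genes were DEGs, 6.38% higher and 6.32% lower. At 6 h 5 were DEGs, 3 higher and 2 lower, against 21.4% of all genes, 11.3% higher and 10% lower. At 24 h 5 were DEGs, 2 higher and 3 lower, against 36.9%, 24.7% higher and 12.2% lower. At 72 h 5 were DEGs, 2 higher and 3 lower, against 39.2%, 26% higher and 13.2% lower. With TMM factors 51.1% instead of 66.3% of all DEGs at 72 h were higher in mut, and 48.3% instead of 66.9% at 24 h. HAS2 was a DEG at 6, 24 and 72 h, and without it the count was 4 of 9 at each of these times.

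BGN was higher in mut clones by 2.52 ± 0.446 on the log2 scale in solvent (adjusted p = 0.000241), 2.34 ± 0.317 at 6 h, 2.47 ± 0.284 at 24 h and 4.22 ± 0.595 at 72 h (adjusted p = 2.52e-06). In CPM these were means of 17.4 ± 2.48 against 3.35 ± 1.72 in solvent and 24.2 ± 2.29 against 1.74 ± 1.42 at 72 h (SD, n = 4 each). Each alternative that could be fitted kept these 4 calls, the one with the replications of a clone summed among them. GPC1 was higher in mut by 0.38 ± 0.063 at 6 h, 0.49 ± 0.0637 at 24 h and 0.53 ± 0.0642 at 72 h (adjusted p = 2.69e-07), with no overlap at these times. In solvent its difference was 0.13 ± 0.063 (adjusted p = 0.172), with overlap. SDC4 was higher in mut by 0.44 ± 0.118 in solvent (adjusted p = 0.0122) and by 0.35 ± 0.118 at 6 h (adjusted p = 0.0321), and its differences of 0.24 at 24 h and 0.14 at 72 h did not pass. The 6 h call of SDC4 was lost without series 27-2, at 0.22 (adjusted p = 0.162), and without the 6 h library of 27-1, 27-2, 1-1, 1-2 or 65-2. The solvent call was lost without the library of 65-2.

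HAS2 was lower in mut clones under TGFβ1. Summed over 4 libraries, WT and mut had 100 and 0 counts at 6 h, 283 and 6 at 24 h, and 419 and 27 at 72 h, and no library of one genotype overlapped the other. Against a floor of 3 counts per library, the WT mean at 6 h was at least 8.54-fold higher. The ratio of summed counts over summed library totals, WT to mut, was 44.2 at 24 h (95% exact binomial interval 20.0 to 121) and 16.6 at 72 h (11.2 to 25.5), and these intervals cover counting error only. In the limma-voom fit with no low-count filter these 3 differences had an adjusted p of 0.00194, 0.000218 and 0.000268. In solvent WT had 49 counts and mut 22, of which 20 were in library 1-2, and the groups overlapped. The log2 difference there was -2.46 in the fit with no filter and did not pass (adjusted p = 0.168), which does not show equal levels. HAS3 was lower in mut by 1.89 ± 0.209 on the log2 scale in solvent (adjusted p = 2.76e-07), by 1.58 ± 0.257 at 6 h and by 1.25 ± 0.263 at 72 h, each without overlap. At 24 h it was lower by 0.66 ± 0.259 (adjusted p = 0.0462), with overlapping libraries, and that call was lost without series 1-2 (adjusted p = 0.0928) and without any of 11 single libraries, which include the 24 h libraries of 27-1, 2-2, 1-1, 65-1 and 1-2. CD44 was slightly lower in mut at 24 h, by 0.19 ± 0.0704 (adjusted p = 0.0307), and at 72 h, by 0.18 ± 0.0703 (adjusted p = 0.0445). Without series 27-2 neither passed (adjusted p = 0.0909 and 0.101), and without series 1-2 neither (adjusted p = 0.139 and 0.0536). The 24 h call was lost without the 24 h library of 27-2, 2-2 or 1-2, and the 72 h call without the 72 h library of 2-1, 27-2, 2-2, 1-1, 65-1 or 1-2. VCAN, SDC1, SDC2 and HSPG2 passed at no treatment, and VCAN differed by 0.12 ± 0.172 at 72 h.

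The test of the difference in response between the genotypes called none of the 10 genes at 6 h in limma-voom, where 0.074% of all genes passed. At an unadjusted p below 0.05 it was 1 gene, GPC1 at 0.25 ± 0.0891 in limma-voom, edgeR's quasi-likelihood test called 0, and DESeq2 called 1, HAS2, of which the mut 6 h libraries had no count. At 24 h GPC1 and HAS3 passed, against 9.65% of all genes, and at 72 h GPC1, against 12.3%. With TMM factors HAS3 alone passed at 24 h and GPC1 alone at 72 h.

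Genes of the same pathways were counted from 6 lists with 135 symbols, of which 122 were in the table and 104 were tested. At 72 h of TGFβ1 63 list genes were DEGs in WT and 36 in mut, and 16 differed in response between the genotypes. These are 60.6%, 34.6% and 15.4% of the list genes tested, where 52.2%, 24.1% and 12.3% of all genes passed. Shares of the single lists follow in the order WT and mut, to be read against 52.2% and 24.1%.

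Of 17 other proteoglycan core proteins tested, 13 were DEGs in WT at 72 h, 5 higher and 8 lower, and 9 in mut, 4 higher and 5 lower (76.5% and 52.9% of the list). Their median log2FC in WT was -0.37, against -0.19 for all genes. With TMM factors the WT split was 6 higher and 5 lower. Testican-1 (SPOCK1) rose from 26.0 to 94.4 CPM (group means) in WT and fell from 50.4 to 33.2 CPM in mut, the difference in response being -2.49 ± 0.223 (adjusted p = 8.61e-08). Receptor-type phosphatase zeta (PTPRZ1), a chondroitin sulfate proteoglycan of the cell surface, showed the opposite, from 11.1 to 7.67 CPM in WT and 3.15 to 5.56 CPM in mut, with a difference of 1.40 ± 0.295 (adjusted p = 0.00231). Its WT fall was lost with TMM factors (adjusted p = 0.077). GPC4, another glypican, rose by 0.65 ± 0.202 in WT and 1.19 ± 0.191 in mut. Brevican (BCAN) fell by 3.05 ± 0.457 on the log2 scale in WT and 1.87 ± 0.28 in mut, and betaglycan (TGFBR3), the TGFβ co-receptor, by 1.75 ± 0.183 and 1.54 ± 0.159.

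Of 16 genes of hyaluronan synthesis, binding and turnover, 9 were DEGs in WT at 72 h, 6 higher and 3 lower, and 1 in mut, HYAL3, named after its value was seen (56.2% and 6.25% of the list). With the series block 4 were DEGs in mut, against 33.9% of all genes, and 7 instead of 1 differed in response, against 23.5%. The median log2FC was 0.41 in WT and 0.06 in mut. UGP2, which makes UDP-glucose, went from 155 to 237 CPM in WT and from 124 to 124 CPM in mut, a difference in response of -0.59 ± 0.142 (adjusted p = 0.00656). UGDH, which oxidizes UDP-glucose to the UDP-glucuronate used by the synthases, rose by 0.62 ± 0.115 in WT (adjusted p = 5.44e-05), and its mut value was 0.27 ± 0.115 (adjusted p = 0.0827, and 0.0294 with TMM factors). CEMIP, needed for hyaluronan degradation, fell in WT from 12.1 to 3.99 CPM, and the hyaluronidase HYAL1 from 2.89 to 1.25 CPM (adjusted p = 0.0462, and 0.0855 with TMM factors). In mut CEMIP was at 3.05 and 1.75 CPM (adjusted p = 0.0576, and 0.00733 with the series block). HYAL1 was at 4.76 and 3.96 CPM there (adjusted p = 0.63). Their differences in response did not pass (adjusted p = 0.208 and 0.317), but did with the block (adjusted p = 0.0335 and 0.00528).

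Of 14 genes of the linker region and of precursor supply, 6 were DEGs in WT at 72 h, 2 higher and 4 lower, and 2 in mut, both lower, SLC35D1 and PAPSS1 (42.9% and 14.3% of the list). With TMM factors it was 4 higher and 2 lower in WT, and 1 higher and 0 lower in mut. PAPSS2, which makes the sulfate donor PAPS, rose from 4.97 to 20.1 CPM in WT, and its mut values were 3.16 and 4.93 CPM, a difference in response of -1.34 ± 0.415 (adjusted p = 0.0316). SLC35B2, a PAPS transporter, rose by 0.20 ± 0.073 in WT. PXYLP1, which removes phosphate from the linker xylose, fell from 14.3 to 6.27 CPM in WT, with 16.9 and 16.5 CPM in mut (difference 1.16 ± 0.246). SLC35D1, a nucleotide sugar transporter, fell by 0.41 ± 0.0831 in WT and 0.26 ± 0.0824 in mut, the latter not with TMM factors (adjusted p = 0.0966).

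Of 16 genes of chondroitin and dermatan sulfate assembly, 11 were DEGs in WT at 72 h, 9 higher and 2 lower, and 9 in mut, 6 higher and 3 lower (68.8% and 56.2% of the list). The medians were 0.29 and 0.28, against -0.19 and -0.09 for all genes. CHST11, a chondroitin 4-O-sulfotransferase, rose by 1.43 ± 0.115 in WT and 0.88 ± 0.12 in mut, and CSGALNACT1, which starts the chondroitin chain, by 0.98 ± 0.219 and 0.89 ± 0.192. UST and DSEL, which act on uronic acids of the chain, fell in both genotypes, UST by 0.84 ± 0.123 in WT and 0.95 ± 0.101 in mut. CHST15, which makes the disulfated E unit, rose from 39.8 to 66.7 CPM in WT and fell from 82.6 to 52.6 CPM in mut, a difference of -1.40 ± 0.133 (adjusted p = 1.88e-07). CHST3, a chondroitin 6-O-sulfotransferase, rose by 0.43 ± 0.0661 in WT, with -0.04 ± 0.0657 in mut.

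Of 19 genes of heparan sulfate assembly and editing, 12 were DEGs in WT at 72 h, 8 higher and 4 lower, and 7 in mut, 6 higher and 1 lower (63.2% and 36.8% of the list). With TMM factors the WT split was 11 higher and 3 lower. The median log2FC was 0.19 in WT and 0.21 in mut. NDST1, which starts the sulfation of the chain, rose by 0.80 ± 0.0684 in WT and 0.48 ± 0.0684 in mut. HS3ST3A1, a 3-O-sulfotransferase, rose from 10.3 to 23.1 CPM in WT and was at 1.76 and 2.34 CPM in mut. Its mut log2FC, 0.63 ± 0.503 (adjusted p = 0.395), and its difference in response, -0.57 ± 0.552 (adjusted p = 0.553), did not pass. The log2 difference between mut and WT was -2.77 ± 0.428 in solvent (adjusted p = 4.09e-05) and -3.34 ± 0.349 at 72 h (adjusted p = 2.47e-08). Heparanase (HPSE) fell by 0.92 ± 0.165 in WT and 0.58 ± 0.166 in mut. HS6ST2, a 6-O-sulfotransferase, fell in WT from 94.1 to 66.7 CPM with 92.6 and 88.5 CPM in mut, and SULF2, which removes 6-O-sulfates outside the cell, was at 105 and 93.9 CPM in WT and rose from 64.0 to 89.0 CPM in mut. Their differences in response were 0.44 ± 0.0954 and 0.63 ± 0.164 (adjusted p = 0.00313 and 0.012).

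Of 22 shedding proteases and cytoplasmic partners, 12 were DEGs in WT at 72 h, 9 higher and 3 lower, and 8 in mut, 5 higher and 3 lower (54.5% and 36.4% of the list). With TMM factors the WT split was 11 higher and 1 lower, and with the series block 13 were DEGs in mut, against 33.9% of all genes. The median log2FC was 0.19 in WT and 0.14 in mut. MMP9 rose from 3.92 to 35.4 CPM in WT and from 0.877 to 4.24 CPM in mut, and ADAMTS15, a versican-cleaving protease, from 1.08 to 8.79 and from 0.906 to 3.24 CPM. MMP14, a membrane protease that cuts CD44 and syndecan-1, rose from 289 to 616 CPM in WT and from 259 to 329 CPM in mut, a difference in response of -0.75 ± 0.149 (adjusted p = 0.00144). ADAMTS1, another versican-cleaving protease, rose from 2.23 to 9.53 CPM in WT, with 1.48 and 1.50 CPM in mut (difference -1.99 ± 0.431). ANK3 fell in both genotypes, and TIAM1 fell by 0.41 ± 0.108 in WT, though not with TMM factors (adjusted p = 0.0624).

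Among genes with a mean of at least 10 CPM, those whose log2 levels over the 32 libraries were most like each of the 10 were found by Pearson correlation, as a description, since these libraries share treatment and clones. HAS2 was most like UGP2 (r = 0.957) and DUSP3 (r = 0.905). CD44 was most like APPL2 (r = 0.948) and HGSNAT (r = 0.946), GPC1 like ENTPD2 (r = 0.959) and MRPL10 (r = 0.956), and BGN like ABCC3 (r = 0.937) and GALNS (r = 0.915). VCAN was most like CDK14 (r = 0.894) and PID1 (r = 0.889), SDC1 like FBXL16 (r = 0.898) and ALOX15B (r = 0.881), and SDC4 like UBE2H (r = 0.906) and SUSD6 (r = 0.899). The lowest top values were those of HSPG2 with OAS3 (r = 0.882) and CCDC88C (r = 0.873), HAS3 with PPP2R1B (r = 0.855) and SOX15 (r = 0.836), and SDC2 with NME7 (r = 0.833) and CYTOR (r = 0.807).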

How the data were processed

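RNA of 32 libraries of MCF10A JUNB WT and mut clones was sequenced as paired-end reads from an unstranded kit. The deposited values are raw read counts per Ensembl gene; the authors trimmed reads with Trimmomatic and aligned and counted them with STAR on GRCh38. Symbols were taken from GENCODE 44 (17763 of 17788 genes). Groups followed the labels, 4 libraries each.

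Counts were tested with limma-voom (limma 3.58.1, edgeR 4.0.16, R 4.3.3) on 14865 genes kept by filterByExpr (minimum count 10, minimum total 15), with library-size scaling and 1 mean per group over all 32 libraries, as in the study's methods. P-values were adjusted by Benjamini-Hochberg over all genes tested, and the threshold was 0.05. CPM are counts divided by the library total and scaled to 1000000. Alternatives were TMM factors, edgeR's quasi-likelihood test, DESeq2 1.42.0, other filters, fewer libraries, summed replications, a minimum log2 change and a series block. The scripts were tested on simulated data.

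Treated and solvent libraries of a series come from the same clone, which is the pairing of the block. Deviations from group means correlated within a series between 0.0225 (lowest pair, in 1-2) and 0.721 (highest pair, in 27-2). Series 27-2 deviated most as a whole, with a mean of 0.680 within it and -0.322 with the other WT series. Genotypes cannot be blocked, since each clone has 1 genotype.

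The 10 genes, the lists and the tests were chosen with earlier results of these data known. All 10 genes are described. Named from each list were the 2 strongest rises and the 2 strongest falls in WT at 72 h (DEGs with a mean of at least 1 CPM), and the 2 with the smallest adjusted p for a different response. Likeness used log2(CPM + 0.5). Promoter sequences are from RefSeq, and no protein sequence was used here.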

Additional observations from a re-analysis of the deposited data

Results flagged for a closer look

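In 6 of the 80 groups of 4 libraries formed by the 10 genes, 1 library stood apart from the other 3, and chance alone puts about 1 in 20 groups there. VCAN was at 272 CPM in the mut 24 h library of 1-1, against 185 to 198 CPM in the others. SDC2 was at 3.004 CPM in the WT 6 h library of 27-2, against 0.652 to 1.05 CPM, at 1.78 CPM in the mut 6 h library of 1-2, against 1.06 to 1.17 CPM, and at 1.10 CPM in the mut 24 h library of 1-2, against 2.21 to 2.31 CPM. HAS2 was at 0.449 CPM in the mut solvent library of 1-2, against 0 to 0.0212 CPM. CD44 was at 946 CPM in the mut 24 h library of 1-2, against 1058 to 1066 CPM. Of these 6 values 4 came from 3 libraries of series 1-2.

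The response to TGFβ1 differed between JUNB WT and JUNB mut by the test of the difference in limma-voom for GPC1 at 24 h (0.36 ± 0.0896, adjusted p = 0.0114) and 72 h (0.39 ± 0.09, adjusted p = 0.00441) and for HAS3 at 24 h (1.23 ± 0.333, adjusted p = 0.0184). With the replications of a clone summed, GPC1 passed at neither time (adjusted p = 0.109 and 0.0698). GPC1 at 24 h did not pass with TMM factors (adjusted p = 0.0948), and without series 1-2 neither gene passed at 24 h.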

How the results depend on the processing

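No called value of the 10 genes or of the named pathway genes changed sign under any setting run. Of 61 called values of the 10 genes, 4 were lost with TMM factors, 6 in edgeR's quasi-likelihood test, 5 in DESeq2, 2 without the low-count filter, 0 of 56 with a mean count of at least 50, 5 without series 27-2, 9 without series 1-2, 14 with the replications of a clone summed, and 15 when some single library was left out. With series as a replicate block none of 43 was lost and 20 of 87 uncalled values were gained, and with the block and TMM factors 2 of 43 were lost. When only the compared groups were fitted 4 of 52 were lost, and with a minimum absolute log2 change of 1 it was 36 of 61. The cause of the changes was not tested. Counts per library were lowest for HAS2 (3 to 150 in WT, 0 to 20 in mut), SDC2 (26 to 277 and 48 to 152) and BGN in WT (16 to 662).

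Counts of the 10 genes called moved by over 1.5 times as follows, and shares of all genes moved as well. With the block the share of all genes went from 17% to 25.9% in WT at 6 h. In mut it went from 7% to 16.5% at 6 h and from 24.1% to 33.9% at 72 h. For the difference in response it went from 12.3% to 23.5% at 72 h with the block, and from 9.65% to 5.79% at 24 h with TMM factors. Block shares between treatment times stand above, and those of the remaining settings are not given here. In WT at 6 h, 3 became 5 in the quasi-likelihood test, in DESeq2, with the replicate block and without series 27-2, and 6 with the block and TMM factors. In mut at 6 h, 2 became 1 in the quasi-likelihood test and DESeq2, 4 with the block and 0 with summed replications. In mut at 72 h, 5 became 9 with the block, 8 with the block and TMM factors, and 8 when only the compared groups were fitted. For mut against WT at 24 h, 5 became 3 without series 1-2. For the difference in response, 0 became 1 in DESeq2 at 6 h. At 24 h 2 became 1 with TMM factors, in the quasi-likelihood test and with summed replications, and 0 without series 1-2. At 72 h 1 became 2 with the block, 3 with the block and TMM factors, and 0 with summed replications. From 6 to 24 h, 3 in WT became 8 with the block and 7 with the block and TMM factors, and 3 in mut became 5 with the block and 0 with summed replications. From 24 to 72 h, 2 in WT became 1 without series 27-2 and with summed replications. In mut 1 became 0 in the quasi-likelihood test, in DESeq2, without series 1-2 and with summed replications, and 2 with the block, with or without TMM factors.

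With a minimum absolute log2 change of 1 the counts were 0, 4 and 4 in WT at 6, 24 and 72 h, 1, 2 and 1 in mut, 3, 2 and 3 for mut against WT at 6, 24 and 72 h, 1 and 0 for the difference in response at 24 and 72 h, 0 in WT and 0 in mut from 6 to 24 h, and 1 in WT from 24 to 72 h. Pathway genes called at 72 h then went from 63 to 21 in WT, 36 to 9 in mut and 52 to 22 between the genotypes. For the difference in response they went from 16 to 8, and were 27 with the block and 28 with the block and TMM factors. With the block 23.5% instead of 12.3% of all genes passed there. Shares of all genes at the minimum log2 change are not given here, so these losses are not read as particular to these genes.

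Leaving out single libraries gave 2 to 4 called genes in WT at 6 h, 8 to 9 at 24 h and 8 at 72 h, and in mut 0 to 3 at 6 h, 5 at 24 h and 4 to 6 at 72 h. Between the genotypes it gave 2 to 3 in solvent, 4 to 6 at 6 h, 3 to 5 at 24 h (3 without the 24 h library of 2-2 or 1-2) and 4 to 5 at 72 h, and for the difference in response 0, 2 and 1. It gave 2 to 5 in WT and 0 to 4 in mut from 6 to 24 h, and 1 to 2 in WT and 0 to 1 in mut from 24 to 72 h. Pathway genes called were 56 to 65 in WT, 33 to 36 in mut, 45 to 54 between the genotypes and 12 to 17 for the difference in response. Shares of all genes in the fits without a single library are not given here.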
